A study of Rattus norvegicus with 4 samples.

Results

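Interleukins are secreted proteins through which leukocytes signal to each other and to tissue cells, and each acts through a receptor built from several membrane chains. Some chains are private to a cytokine and bind it, while others, such as the common gamma chain, the common beta chain and gp130, are shared and carry the signal to JAK kinases and STAT transcription factors. Receptors of the IL-17 and IL-1 families use adaptor proteins in place of JAK kinases. Macrophages of the lung are both a source and a target of these proteins during particle-induced inflammation.

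The genes described here are the rat genes whose RefSeq symbol begins with Il and a digit, without the central members of the IL-1 family (Il1a, Il1b, Il1rn, Il18, Il1r1, Il1r2 and Il1rap) and without Il34. The rule gave 74 symbols, and 64 of them were matched to a probe, of 16581 named genes on the arrays. The other 10 had no matched probe here. They were the ligand genes Il17d, Il19, Il27 and Il31, the receptor genes Il15ra, Il18rap, Il23r and Il27ra, the enzyme gene Il4i1 and the pseudogene Il13ra1-ps1.

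RNA came from NR8383, a continuous line of alveolar macrophages derived from normal rat lung by lavage, in which adherent and floating cells grow side by side. The 4 biological replicates had been incubated for 4 h with Printex 90, a carbon black made of clustered nanoparticles, at 0.9 cm²/cm². Each was hybridised to its own 1-colour Agilent array. The line is a single cell line after 20 passages, and unexposed cells, which the design of the study includes, were not analysed here. Every value below is therefore a level in exposed cells, and no effect of the particles was computed.

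On each array between 37.5% and 40.9% of 45598 probes were marked by the scanner software as well above background, here called detected, and no spot was saturated. A level is log2 of the processed intensity minus the 75th percentile of the same array, so that 0 is that percentile, and it is given as mean ± SD over the 4 arrays. A level belongs to its own probe, and levels of different genes are not set against each other. A gene with no mark has only an upper bound on that array, and with 4 arrays each SD is itself imprecise. Of 12 macrophage markers, 10 were well above background on all 4 arrays, among them Cd68, Ptprc and Spi1, while Marco and Adgre1 were so on 0. Of 35 measured markers of other cell types, 9 were detected on all 4 arrays. Over all named genes the share detected on all 4 arrays was 47.9%. T and NK cell markers gave 4 of 9 (Cd3d, Lck, Nkg7 and Gzmb), with Cd3e, Cd3g, Cd2, Cd5 and Cd8a on 0. The others detected on all 4 arrays were Pax5, Napsa, Dcn, Pecam1 and Vwf. The samples are a single cell line, and which of its cells carry these RNAs was not tested. Fewer cells with an RNA and less RNA per cell cannot be told apart in bulk RNA.

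Interleukin receptors were detected more often than interleukins. Of 64 measured genes, 17 (26.6%) were detected on all 4 arrays, 6 on 1 array and 41 on 0. Over all named genes the corresponding shares were 47.9%, 8.06% (1 to 3 arrays) and 44%. Of 30 measured ligand genes, 4 (13.3%) were detected on all arrays, and of 32 measured receptor genes, 12 (37.5%). The binding protein gene Il18bp was detected on all arrays, and Il22ra2, which encodes a soluble receptor that captures IL-22, on 0. These shares are counts of genes by the software's mark, and the difference between them was not tested.

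**Figure D1:**
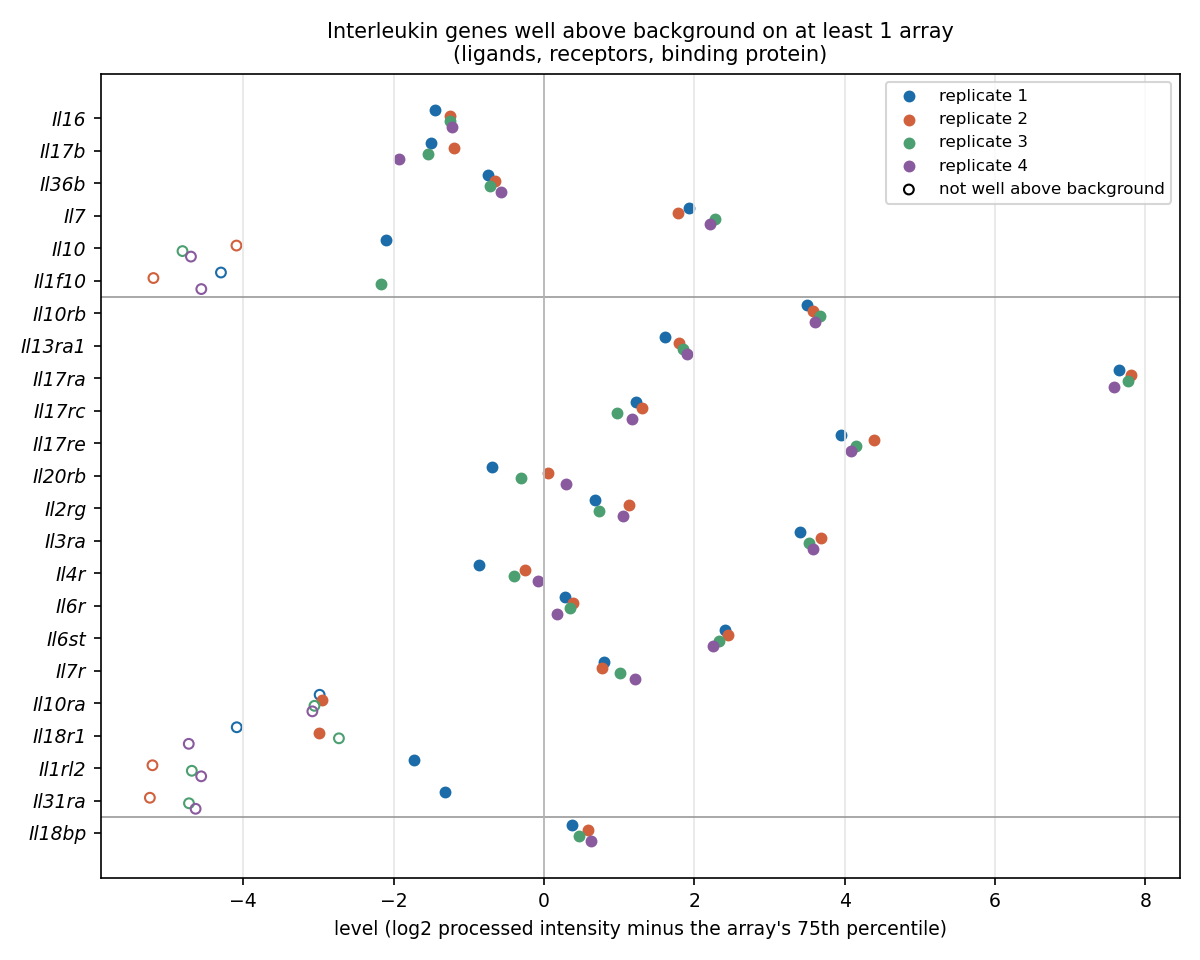
Level of the 23 interleukin genes that were well above background on at least 1 array (x axis, log2 processed intensity minus the 75th percentile of the array), by gene (y axis), with ligands on top, receptors in the middle and the binding protein gene at the bottom. Each point is 1 replicate, and open points were not well above background. The 17 genes with 4 filled points keep them close together, while the 6 with a single filled point have the others between -5.24 and -2.73.

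Among the ligands of the common gamma chain receptors, Il7 was the only 1 of 6 detected on all arrays. IL-7 supports lymphocyte survival. Its levels were 1.93, 1.78, 2.27 and 2.21 on replicates 1 to 4, or 2.05 ± 0.23 (SD, n = 4). Replicates 3 and 4 were the high ones, and the range of 0.485 was, of the 4 ligands detected on all arrays, the widest after that of Il17b. The other ligands of this group, Il2, Il4, Il9, Il15 and Il21, were detected on 0 arrays. The Il7 level rested on a single probe. A second probe matched to the same transcript had levels of -3.17, -3.15, -3.32 and -3.02 and was detected on 0 arrays.

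Il16 encodes a chemoattractant that binds CD4. Its levels were -1.45, -1.24, -1.24 and -1.22 on replicates 1 to 4, with a mean of -1.29 ± 0.11 (SD, n = 4). Replicate 1 was the low 1, and the other 3 lay together. The gene of its receptor, Cd4, was detected on all arrays at 1.06 ± 0.13.

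In the IL-17 family of ligands, Il17b was detected on all arrays, and Il17a, Il17c, Il17f and Il25 on 0. Il17b had levels of -1.50, -1.20, -1.54 and -1.93 on replicates 1 to 4, or -1.54 ± 0.30 (SD, n = 4). Replicate 2 was high and replicate 4 low. Of the 6 measured ligands of the IL-1 family outside the excluded ones, Il36b, an agonist of the IL-36 receptor, was detected on all arrays. Its levels of -0.75, -0.65, -0.72 and -0.57 gave -0.67 ± 0.079 (SD, n = 4), the smallest SD among the ligands detected on all arrays. Il36a, Il36g, the receptor antagonist gene Il36rn and the alarmin gene Il33 were detected on 0 arrays. The brighter probe of Il36rn had levels of -2.13, -2.80, -2.28 and -2.55. A weaker software mark, for a signal positive and significant against background, was set for that probe on all 4 arrays.

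No ligand of the IL-6, IL-10 or IL-12 families was detected on all arrays. These were Il6 and Il11, then Il10, Il20, Il22 and Il24, then Il12a, Il12b and Il23a. These families hold cytokines of acute inflammation, of its restraint and of T cell differentiation. Il3, Il5 and Il13, classical products of T cells and mast cells, were likewise not well above background on any array. IL-12 and IL-23 are dimers that share the chain made from Il12b, and no chain of either dimer was detected. For IL-27, the partner chain gene Ebi3 was detected on all arrays with a level of 1.92 ± 0.25 (SD, n = 4), and Il27 had no matched probe.

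Il10 was the ligand whose detection differed between arrays and probes. IL-10 restrains macrophage activation. Of its 3 probes, a first had levels of -2.10, -4.09, -4.81 and -4.70 on replicates 1 to 4 and a second had -2.003, -5.22, -4.70 and -4.61. Both were well above background on replicate 1 alone. The remaining probe, matched to the same transcript as the first, had -4.45, -5.30, -4.78 and -4.65 and was detected on 0 arrays. On replicate 1 the median signal of the local background around the spots of the first and second probe was 42 and 43, against 29 for the remaining probe and an array median of 29. On replicates 2 to 4 it was between 30 and 33 around the spots of the first and second probe.

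Marks on replicate 1 alone were set beside local background for other genes too, and a cause was not tested. The receptor gene Il31ra had levels of -1.31, -5.24, -4.72 and -4.63, with a mark on replicate 1 alone, where its local background was 44 against 32, 32 and 30 on the other arrays. Of 3 interleukin probes with a local background above the 95th percentile of replicate 1 and no mark on replicates 2 to 4, 3 were marked on replicate 1. They were the first and second probe of Il10 and the probe of Il31ra, so this count adds no case to those above. Of the 54 with a lower local background, 1 was marked on replicate 1, that of Il1rl2, the IL-36 receptor gene. Over all probes without a mark on replicates 2 to 4, 653 of 1266 (51.6%) with a high local background were marked on replicate 1, and 189 of 25022 (0.755%) with a lower 1. Il1rl2 had levels of -1.73, -5.21, -4.68 and -4.56, with a local background of 32 on replicate 1 and 25, 25 and 23 on the others. Detection on replicate 1 alone held for 264 named genes, 1.59% of them. Il1f10, an IL-1 family ligand, was marked on replicate 3 alone, with levels of -4.30, -5.19, -2.17 and -4.56. The IL-18 receptor gene Il18r1 was marked on replicate 2 alone, with -4.09, -2.99, -2.73 and -4.72. Its highest level, on replicate 3, carried no mark.

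Receptors that use the common gamma chain were partly detected. Il2rg, the gene of the shared chain, had levels of 0.67, 1.13, 0.74 and 1.05 on replicates 1 to 4, or 0.90 ± 0.22 (SD, n = 4), with replicates 2 and 4 above the other 2. Il7r, which encodes the IL-7-binding chain, had 0.80, 0.78, 1.01 and 1.21, or 0.95 ± 0.20. Il4r, the IL-4-binding chain of alternative macrophage activation, had -0.86, -0.25, -0.40 and -0.078, or -0.40 ± 0.34, and was lowest on replicate 1. The partner of Il4r in the receptor for IL-4 and IL-13 outside lymphocytes is made from Il13ra1, which had 1.61, 1.80, 1.85 and 1.90, or 1.79 ± 0.13. It too was lowest on replicate 1, by its brighter probe. The ligand-binding chain genes Il2ra, Il2rb, Il9r and Il21r, of which Il2rb serves both the IL-2 and the IL-15 receptor, and the decoy receptor gene Il13ra2, were detected on 0 arrays.

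The receptors of IL-3 and IL-6 had signal for both chains. Il3ra, the IL-3-binding chain, had levels of 3.41, 3.69, 3.52 and 3.58, or 3.55 ± 0.12 (SD, n = 4). Its partner, the common beta chain gene Csf2rb, was at -1.23 ± 0.12 on its own probe, while the IL-5-binding chain gene Il5ra was detected on 0 arrays. Il6r, the IL-6-binding chain, had 0.28, 0.38, 0.35 and 0.18, or 0.30 ± 0.091, and Il6st, the gene of gp130, 2.41, 2.44, 2.34 and 2.26, or 2.36 ± 0.083. For these 3 genes the highest array was replicate 2, as for 38.6% of all genes tested, and the largest range was 0.282, for Il3ra. The highest array depended on the scaling. With the 75th percentile over probes detected on all 4 arrays it was replicate 4 for Il3ra, 3 for Il6r and 1 for Il6st. Il11ra1, which pairs with gp130 to bind IL-11, was detected on 0 arrays.

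All 3 receptor chain genes that form the IL-17A, IL-17F and IL-17C receptors were detected on all arrays. Il17ra, the chain that these receptors share, had levels of 7.65, 7.81, 7.77 and 7.59, or 7.70 ± 0.10 (SD, n = 4). It was spotted 10 times on each array, and the SD between those spots was 0.122, 0.052, 0.064 and 0.088 on replicates 1 to 4. Il17rc, the IL-17A and IL-17F partner, had 1.22, 1.31, 0.98 and 1.17, or 1.17 ± 0.14. Il17re, the IL-17C-binding chain, had 3.96, 4.40, 4.16 and 4.08, or 4.15 ± 0.18, with replicate 2 high. The probe of Il17re lay on 2 spots, whose SD was 0.421 on replicate 1 and between 0.012 and 0.081 on the others. Il17rb, which pairs with Il17ra to bind IL-25, and Il17rd were detected on 0 arrays.

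Within the IL-10 receptor family, the accessory chains Il10rb and Il20rb were detected on all arrays and their partners were not. Il10rb, the chain shared by the IL-10 and IL-22 receptors, had levels of 3.50, 3.59, 3.68 and 3.60, or 3.59 ± 0.073 (SD, n = 4), the smallest SD of the 17 genes. Il10ra, the IL-10-binding chain, had -2.98, -2.95, -3.05 and -3.08, and was well above background on replicate 2 alone. These 4 levels lay within 0.132 of each other. The lowest level with a mark was -2.29, -3.05, -2.56 and -2.40 on replicates 1 to 4. Il10ra thus lay just above that level on replicate 2 and below it on replicates 1, 3 and 4. The weaker software mark, for a signal positive and significant against background, was set for Il10ra too on all 4 arrays. Il20rb, a chain of the receptors for IL-20 and its relatives, had -0.69, 0.056, -0.31 and 0.29, or -0.16 ± 0.43, with replicates 2 and 4 above the other 2 and replicate 1 lowest. Its partners Il20ra and Il22ra1 were detected on 0 arrays. Il18bp, which encodes a soluble inhibitor of IL-18, had 0.38, 0.58, 0.47 and 0.63, or 0.52 ± 0.11. The ST2 chain gene Il1rl1, which binds IL-33, the IL-12 receptor genes Il12rb1 and Il12rb2, and the IL-1 receptor-like genes Il1rapl1 and Il1rapl2 were detected on 0 arrays.

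Set side by side by complex, the chains were often present in part. Of 25 receptor complexes, 7 had every chain well above background on all 4 arrays. They were the type I and type II IL-4 receptors, of which the second also binds IL-13, and the receptors for IL-3, IL-6, IL-7, IL-17A with IL-17F, and IL-17C. The IL-6 receptor was complete through 1 of the 2 probes of Il6r. For single genes, the share detected on all 4 arrays was 47.9% over all named genes. How many complexes that share alone would complete was not computed. In 4 complexes a chain had no matched probe. Of the 21 complexes with all chains measured, 2 had no chain detected on all arrays, those for IL-12 and for IL-31. In the remaining 12 the chain with signal was a shared or accessory 1, such as Il2rg, Il6st, Csf2rb, Il10rb, Il20rb, Il17ra or Il1rap. Il1rap, the accessory chain of the IL-33 and IL-36 receptors and no member of the set, had a level of 1.70 ± 0.087 (SD, n = 4). IL-7 was the only ligand among those of the 7 complexes whose own gene was detected on all arrays. Presence of RNA for every chain does not show that a receptor stands on the cell surface.

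**Figure D2:**
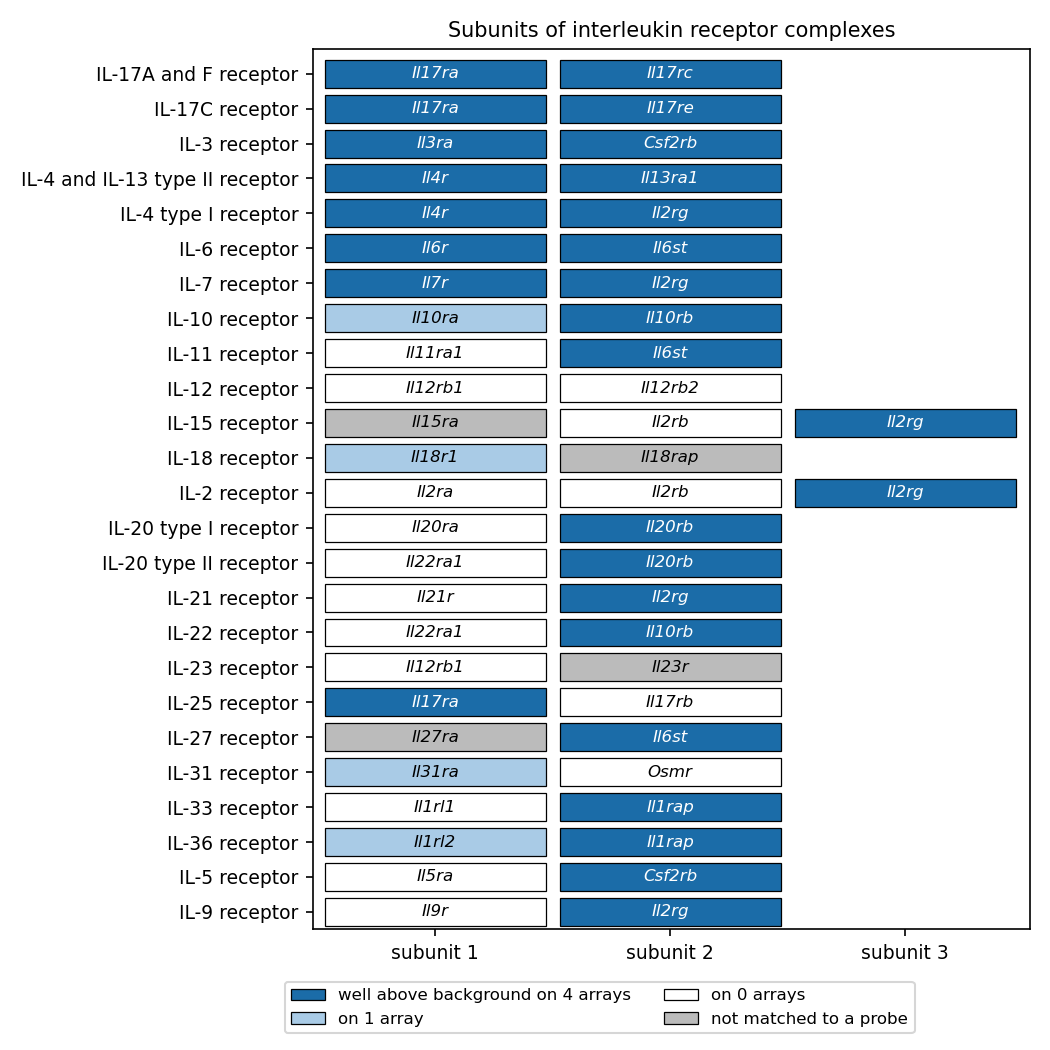
Chains of 25 interleukin receptor complexes (rows), each box being 1 chain, coloured by the number of arrays on which its gene was well above background. In the 7 complexes at the top every box is dark, that is, detected on 4 arrays, and in most of the others the dark box is the shared or accessory chain.

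Of 31 listed genes that carry interleukin signals, 30 had a probe. Detection on all 4 arrays held for 21 of them, on 1 to 3 arrays for 0, and 9 had no array with a mark. Over all named genes these shares were 47.9%, 8.06% and 44%, and the difference was not tested. Among the JAK kinases, Jak1 (5.57 ± 0.073), Jak2 (1.06 ± 0.13) and Tyk2 (1.79 ± 0.13) were detected on all arrays. Jak3, the kinase that binds the common gamma chain, was detected on 0 arrays. Among the STAT genes detected on all arrays were Stat2 (4.53 ± 0.033), Stat3 (1.40 ± 0.23), Stat5a (4.68 ± 0.17), Stat5b (1.28 ± 0.32) and Stat6 (1.86 ± 0.15), the last of which acts after the IL-4 receptor. Stat4, which acts after the IL-12 receptor, was detected on 0 arrays, as was the case for both chains of that receptor.

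Of the feedback inhibitors induced by STAT proteins, Cish (-0.18 ± 0.51) and Socs3 (1.81 ± 0.25) were detected on all arrays and Socs1 and Socs2 on 0. Cish, a target of STAT5, had levels of 0.54, -0.30, -0.30 and -0.65 on replicates 1 to 4, and thus was highest on replicate 1. Of 8 measured receptor chains and partners with other symbols, Csf2rb, Cd4, Ebi3 and Crlf2 were detected on all arrays. Crlf2, which pairs with Il7r to bind the cytokine TSLP, had 6.66 ± 0.12 (SD, n = 4), and Tslp itself had no matched probe. Osmr, Lifr and Cntfr, the chains that join gp130 for other cytokines of the IL-6 family, and the inhibitory receptor gene Sigirr were detected on 0 arrays. Of 7 adaptors, 6 were detected on all arrays. They were Traf3ip2 (2.38 ± 0.15), the adaptor of the IL-17 receptors, Traf6 (-0.84 ± 0.30), Myd88 (5.49 ± 0.11), Irak1 (2.48 ± 0.14), Irak2 (1.64 ± 0.12) and the inhibitor Tollip (3.76 ± 0.11), with Irak4 on 0.

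Neighbouring interleukin genes, by their order on the chromosomes in RefSeq, were not always detected together. How often neighbours among all genes were detected together was not computed. Il17re and Il17rc are neighbours, and both were detected on all arrays. Il4r and Il21r are neighbours too, as are Il6st and Il31ra, but only Il4r and Il6st were detected on all 4. In the run of Il36g, Il36a, Il36b, Il36rn and Il1f10, the single gene well above background on all arrays was Il36b. Il1rn, which lies in the same run and is no member of the set, was also detected on all arrays. In the run of Il4, Il13 and Il5, and in the pairs of Il2 with Il21 and of Il17a with Il17f, no gene was detected. The run of Il24, Il20, Il19 and Il10 had no member detected on all arrays, and Il19 had no matched probe.

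The spread between replicates was tested next, for each of 14913 genes and transcripts with signal on at least 2 arrays, against the spread of genes of like level. The 17 interleukin genes detected on all arrays were the members in that test. Their SDs ran from 0.073 for Il10rb to 0.43 for Il20rb, with a median of 0.126, against a median of 0.161 over all genes tested. The latter include genes not detected on all arrays, so these medians are of unlike sets. The ratio of a gene's variance to that of genes of like level had a median of 0.745, against 0.851 over all genes tested. None of the 17 passed (smallest adjusted p = 0.987, limma, Benjamini-Hochberg over all genes), where 0.476% of all genes tested did. That background of 71 genes was unstable: it was 0 with the percentile over detected probes, 1 with quantile normalization, 236 with normexp, 27 without replicate 2 and 166 without replicate 3, while the count of interleukin genes was 0 in each. At an unadjusted p under 0.05, 0 of the 17 passed, against 5.06% of all genes tested. The count was 2 with normexp (Il20rb and Il4r), and 1 with the mean over probes, with the robust prior, with the filter for detection on all arrays and without replicate 3. Without a filter on dim probes it was 6 of all 64 genes, which include genes not detected on all arrays. The shares of all genes at this unadjusted threshold were not computed for these settings. The counts therefore cannot be read as an excess among interleukin genes. Il20rb came closest, with an SD of 0.43 where genes of its level had 0.203 (unadjusted p = 0.051, limma). It was followed by Il7 (unadjusted p = 0.151, limma) and Il4r (unadjusted p = 0.158, limma). Il36b and Il16 had the lowest ratios, with SDs of 0.079 and 0.11 where genes of their levels had 0.235 and 0.29. The test has low power with 4 arrays: on simulated data it recovered 7% of genes with 8 times the usual SD and 57.5% with 16 times.

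**Figure D3:**
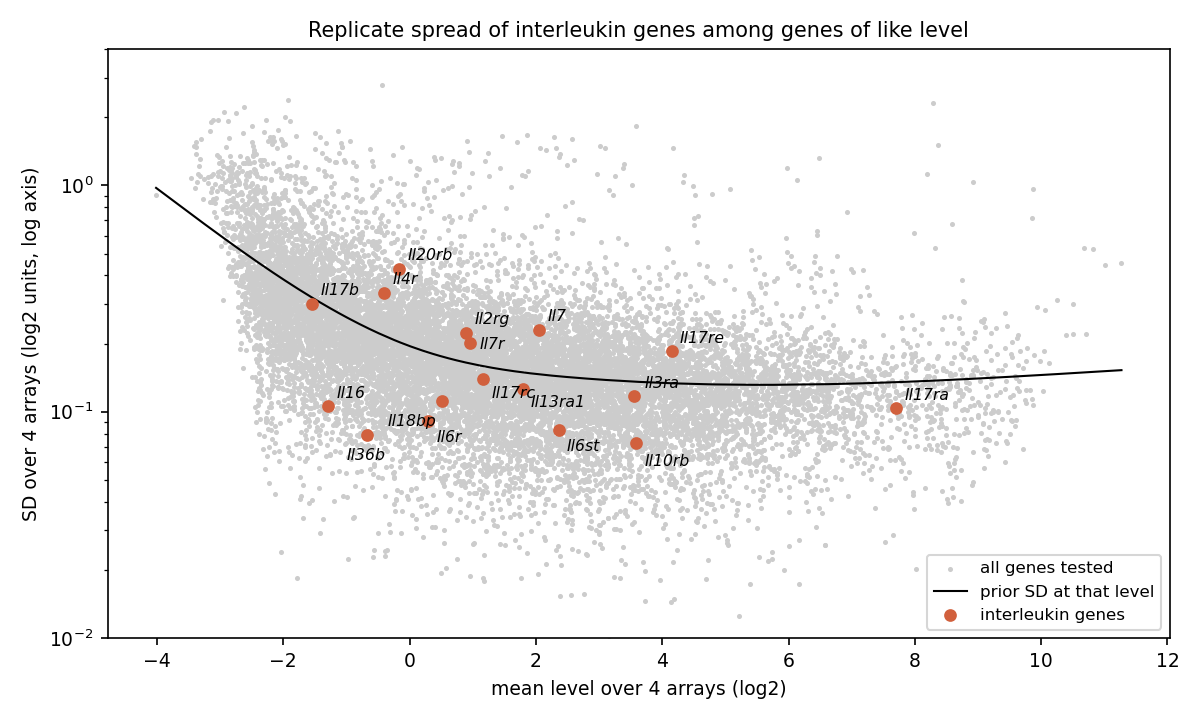
SD between the 4 arrays (y axis, log2 units on a log axis) against mean level (x axis, log2) for the 14913 genes tested (grey) and the 17 interleukin genes among them (orange, labelled). The line is the SD that the model gives genes of that level. Il20rb lies farthest above the line in ratio and Il36b farthest below.

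Levels on replicate 1 were compared with those on the other arrays. Of the 17 genes, 14 were below their own mean there, a count for which the share over all genes was not computed. The lowest level was on replicate 1 for 10 of the 17, and for 39.4% of all genes tested. The count with the highest level on replicate 1 was 0, against 21.9% of all genes tested, and it depended on the scaling. With quantile normalization it was 3 (Il17ra, Il17rc and Il6st) against 31%, and 9 genes were lowest there against 35.3%. With the percentile over detected probes it was 2 (Il17rc and Il6st) against 32.4%, with normexp 2 (Il10rb and Il6st) against 26.9%, and with the mean over probes 1 (Il13ra1) against 21.7%. On replicates 2, 3 and 4, lowest levels numbered 2, 1 and 4 (13.4%, 14.7% and 32.5% of all genes tested) and highest levels 8, 2 and 7 (38.6%, 19.1% and 20.3%). The median deviation from the gene's own mean, for replicates 1 to 4 in turn, was -0.137, 0.086, 0.0048 and 0.066. The same medians over all genes tested were -0.045, 0.069, 0.015 and -0.024. With normexp the median of the interleukin genes on replicate 1 moved to -0.053, and with the percentile over detected probes that on replicate 2 moved to 0.0083. Here normexp is a background model fitted to the raw medians of spot and local background, chosen after the data were seen. Replicate 1 also had the highest negative controls, with a 99th percentile of 27.1 against 4.95 to 7.40 on the other arrays. The part of background in these deviations was not tested.

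**Figure D4:**
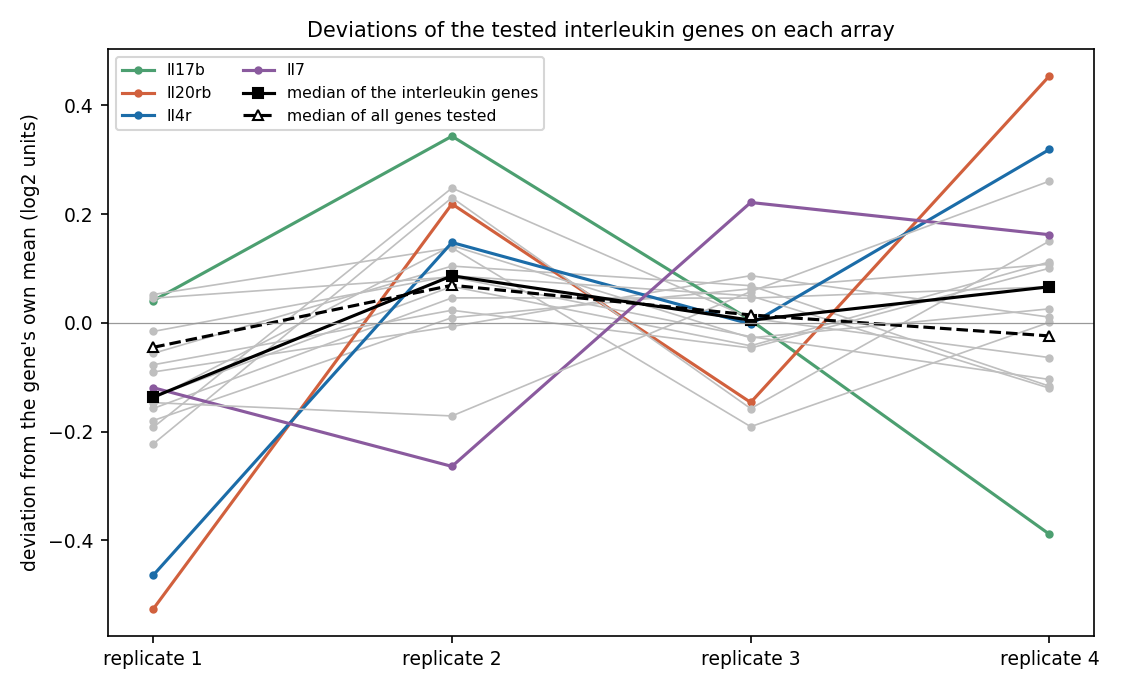
Deviation of each of the 17 tested interleukin genes from its own mean (y axis, log2 units) on the 4 arrays (x axis), with 4 genes in colour and the others in grey. Lines only join the values of a gene, since replicates have no order. The median of the interleukin genes (squares) is lowest on replicate 1 at -0.137, where the median of all genes tested (triangles) is -0.045.

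Where a gene had several probes, they did not always give the same picture. Of 14 such genes, 3 had all probes detected on all arrays, 2 had some and 8 had no detected probe, the remaining gene being Il10. The same shares over all genes with several probes were not computed. The 2 divided genes were Il7, described above, and Il6r, whose second probe, matched to another transcript of the gene, was at -3.86, -3.73, -4.65 and -4.53 and was detected on 0 arrays. Il6st had a second probe at -0.20, 0.034, 0.15 and 0.040, which was lowest on replicate 1, while the brighter probe was lowest on replicate 4. Il13ra1 had a second probe at 0.37, -0.28, -0.022 and -0.16, which was highest on replicate 1, where its brighter probe was lowest. The second probe of Il17re was at 3.74, 3.95, 3.64 and 3.50, and like the first was highest on replicate 2. It was lowest on replicate 4, while the first was lowest on replicate 1, and the 2 probes deviated the same way on 2 of 4 arrays. The deviations of Il6st, Il13ra1 and Il17re between replicates thus depended on the probe, and for the first 2 of these genes the probes deviated the same way on 1 of 4 arrays.

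**Figure D5:**
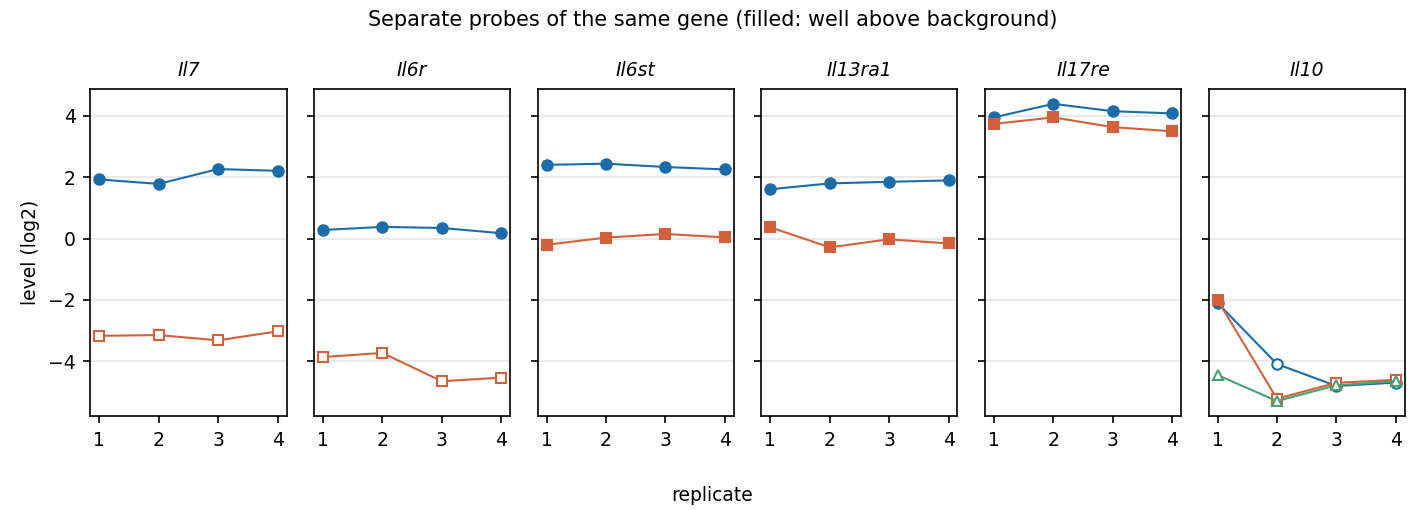
Levels (y axis, log2) of the separate probes of 6 interleukin genes on replicates 1 to 4 (x axis). Each colour and marker is 1 probe, filled points were well above background, and lines only join values of a probe. For Il7 and Il6r a single probe has signal, and for Il10 2 of 3 probes have it on replicate 1 alone.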

How the data were processed

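RNA of 4 carbon black replicates was measured on 1-colour Agilent arrays. The deposited files hold intensity per spot, background-subtracted and detrended within each array by Agilent Feature Extraction 11.0.1.1, per the file headers, and not normalized between arrays. From it, log2 values were averaged over the spots of a probe without non-uniform or control spots, and each array was scaled to its 75th percentile. Accessions without version were matched to a RefSeq gene table (assembly GRCr8, names and gene order only), which named 21109 of 45598 probes (46.3%). The probe with the highest mean stood for a gene, and a gene was detected if any probe was marked on at least 50% of its spots. Spread was tested with an intercept in limma 3.58.1 (R 4.3.3): the residual variance of genes whose probe was marked on at least 2 arrays was set against the trended prior of squeezeVar in a one-sided F test. The test was run on data simulated from its own fitted model, where it made 0 false calls. Such data cannot show how often it makes false calls on these arrays. Pearson correlation between replicates over probes detected on both arrays was 0.988 to 0.995. Replicate numbers come from the labels, which call the replicates biological.

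The genes, lists and tests were chosen with earlier results of these data known. All genes detected on at least 1 array are named with values, and others by name, apart from Il36rn. Alternatives covered scaling, background correction, probe choice, filter, prior, mark and each replicate left out. The planned background correction on mean spot signals could not be run, since the files hold median signals, and these were used in its place. A gene of the signalling list is counted but not reported here by name.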

Additional observations from a re-analysis of the deposited data

Results flagged for a closer look

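Of 23 interleukin genes examined for a replicate far from the other 3, 17 were detected on all arrays. Of those 17, Il16 alone stood out by Dixon's gap test at the 95% level. About 1 in 20 groups pass it by chance, which is close to 1 of 17. The other 6 entered through a mark on a single array, so the test cannot be read for them and values alone are given. Il16 on replicate 1, at -1.45, lay below the other 3 arrays, with a gap of 0.907 of a range of only 0.224. Il31ra, 1 of the other 6, was at -1.31 on replicate 1, above the other arrays by 0.845 of its range. Its mark on that same replicate is what brought it in. The other 3 values of Il31ra were not well above background, and the local background around its spot was 44 on replicate 1 against an array median of 29. The part of that background in the value was not tested.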

How the results depend on the processing

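The count of 17 genes detected on all arrays was 20 with the weaker mark for a positive and significant signal, which added Il10ra, Il13 and Il36rn, and 15 when all probes of a gene had to be marked. With that weaker mark 56.2% of all named genes were detected. The count of interleukin genes was 17 with the 99th percentile of negative controls as the limit, where 48.3% of all named genes passed. It was also 17 without any 1 replicate. Shares over all named genes were not computed with all probes required or with a replicate left out. The 7 complete receptor complexes were 8 with the weaker mark, the IL-10 receptor being added, and 7 without any 1 replicate. They were not recounted with all probes required, where Il6r of the IL-6 receptor is not detected. No interleukin gene passed the spread test under the 12 alternatives run, with a smallest adjusted p between 0.154 without the filter on dim probes and 0.992 without replicate 1 (limma). The percentile over detected probes shifted the median level of an array by -3.60 to -3.47 log2 units, and normexp by -0.473 to -0.325. Relative to that shift, 121 of 136 recomputed levels moved by no more than their SD. The 15 that moved more were 12 with normexp and 3 with the mean over probes. On replicate 1 the median deviation lay between -0.137 and -0.053 over all settings, on replicate 2 between 0.0083 with the percentile over detected probes and 0.086, and on replicate 4 between -0.042 with normexp and 0.111 with the percentile over detected probes. The 71 genes called over all genes tested ranged from 0 to 356 over the settings. No paired analysis was possible because all samples form 1 group. Dim genes are limited by background, which differed between arrays.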
